A study of Mus musculus with 12 samples.

Results

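Immediate early genes are transcribed within minutes of a stimulus without new protein synthesis, and their mRNAs are short-lived. The group described here holds 10 of them: the zinc finger transcription factor genes Egr1, Egr2, Egr3 and Egr4, the orphan nuclear receptor gene Nr4a1, the immediate early response genes Ier2 and Ier3, the MAP kinase phosphatase gene Dusp1, the mRNA decay factor gene Zfp36 and the antiproliferative gene Btg2. They were chosen by name, with earlier results of these data known. They are the gene probes that the scanner files label with these symbols, and each of the 10 was read by 1 probe among 24149 genes tested. Egr genes are activated through MAP kinase signalling to the serum response factor, and in the brain they are widely used as reporters of neuronal activity. Nr4a1 and Dusp1 respond to cyclic AMP signalling as well. Dusp1, Zfp36 and Btg2 belong to the negative arm of the response, since they inactivate MAP kinases, destabilise mRNAs and slow proliferation.

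The cells were mouse neural stem cells of the embryonic cortex (E12.5) grown in culture. The knockdown line was stably transfected with an shRNA against JMJD3, the histone H3 lysine 27 demethylase encoded by Kdm6b, and the control line with an shRNA of random sequence. Each line received TGFb, a cytokine that signals through Smad proteins, at 5 ng/ml for 2.5 h, or vehicle. This gave 4 groups of 3 samples, namely knockdown with TGFb, knockdown with vehicle, control with TGFb and control with vehicle, each sample on its own 1-colour Agilent array. A single shRNA and a single line of each kind were compared, so that effects of JMJD3 loss and of the line cannot be told apart.

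Kdm6b averaged 24.2 ± 1.07 in knockdown cells with TGFb, 26.1 ± 0.636 in knockdown cells with vehicle, 63.7 ± 2.27 in control cells with TGFb and 58.5 ± 2.40 in control cells with vehicle (scaled signal, SD, n = 3 each). Scaled signal is the processed intensity on a scale where the array's 75th percentile over gene spots is 100, so values of one gene compare between arrays but values of different genes do not. The targeted gene was 1.16 ± 0.05 lower on the log2 scale in knockdown cells with vehicle and 1.40 ± 0.05 lower with TGFb (SE; log2 differences of -1.16 and -1.40, limma adjusted p = 1.08e-07 and 2.97e-08). The 75th percentile of the intensity ran from 3175 to 4462 and 70.7% to 78.7% of gene spots were well above background. Replicates of a group correlated with r of 0.993 to 0.998 across genes. All 7 neural stem cell markers (Nes and Sox2 among them), 5 of 5 neuron markers and 4 of 4 astrocyte markers were well above background on every array. So were 4 of 5 oligodendrocyte, 2 of 4 microglial, 3 of 4 endothelial and 3 of 5 fibroblast markers, while the microglial gene Aif1 and the endothelial gene Cdh5 were well above background on none. The labels do not say that replicates were separate cultures, so the p-values cover only sample-to-sample spread, part of which may be technical. In bulk RNA, fewer cells of a type and less RNA per cell cannot be told apart.

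The upstream sequences of 4 members that differed between groups are shown because their signals went different ways, and each is the 250 bases before the annotated start (RefSeq, GRCm38.p6, 5′ to 3′ on the gene's strand). Capitals mark TGACGTCA or TGACG on either strand, so that CGTCA is marked too. These are the letters of the cyclic AMP response element and of its core. The intervals are chr6:85513590-85513839 (minus strand) for Egr4, chr17:26508473-26508722 (minus) for Dusp1, chr1:134079156-134079405 (minus) for Btg2 and chr17:35821463-35821712 (plus) for Ier3.
Egr4: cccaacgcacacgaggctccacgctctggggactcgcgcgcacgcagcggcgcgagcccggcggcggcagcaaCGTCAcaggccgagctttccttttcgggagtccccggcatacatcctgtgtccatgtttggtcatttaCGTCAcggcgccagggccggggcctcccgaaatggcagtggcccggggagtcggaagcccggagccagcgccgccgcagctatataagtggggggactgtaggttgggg
Dusp1: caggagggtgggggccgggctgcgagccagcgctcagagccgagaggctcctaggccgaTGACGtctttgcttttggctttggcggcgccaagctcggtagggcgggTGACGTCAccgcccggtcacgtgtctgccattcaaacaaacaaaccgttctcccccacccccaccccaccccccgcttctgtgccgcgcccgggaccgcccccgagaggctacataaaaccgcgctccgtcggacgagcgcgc
Btg2: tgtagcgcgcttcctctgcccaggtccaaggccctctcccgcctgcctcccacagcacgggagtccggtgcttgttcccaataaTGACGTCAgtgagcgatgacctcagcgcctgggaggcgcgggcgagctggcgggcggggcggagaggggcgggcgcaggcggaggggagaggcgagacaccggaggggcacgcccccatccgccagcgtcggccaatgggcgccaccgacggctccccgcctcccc
Ier3: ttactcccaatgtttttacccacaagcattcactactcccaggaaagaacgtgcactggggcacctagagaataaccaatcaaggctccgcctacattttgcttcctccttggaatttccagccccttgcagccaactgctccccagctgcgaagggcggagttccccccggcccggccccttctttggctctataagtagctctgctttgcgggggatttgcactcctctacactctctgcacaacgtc

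The sequence table held promoters of 7 of the 10 members, of 250 bases before to 50 after the start. Egr1, Egr3 and Ier2 are named only. The 8 letters TGACGTCA were found in Dusp1 and Btg2, against 1.79% of all 32851 promoters, and the shorter TGACG, which overlaps them, in 5 members (Btg2, Dusp1, Egr2, Egr4 and Nr4a1), against 20.8% of promoters. GCGNGGGCG, the letters that Egr proteins bind, was found in Btg2, Nr4a1 and Zfp36 (5.55% of promoters). CAGAC, a Smad-binding core, was found in Dusp1, Egr2 and Nr4a1, but also in 49.6% of all promoters. A member was counted if any of its annotated starts held the motif, whereas the percentages count every promoter, so the 2 are not the same measure. Both strands were searched. Ier3 held none of these 4 motifs in this window.

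The CArG box, the site of serum response factor, was found in promoters of Zfp36 and Egr2 (any annotated start), against 1.63% of all promoters. The stretches that hold it are shown for these 2 genes, with the box in capitals, because it is the textbook site through which serum response factor acts on such genes. Their positions are chr7:28379267-28379296 (minus strand) for Zfp36 and chr10:67537484-67537513 and chr10:67537787-67537816 (plus strand) for the Egr2 sites, which belong to different annotated starts.
Zfp36: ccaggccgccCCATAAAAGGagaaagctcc
Egr2 upstream start: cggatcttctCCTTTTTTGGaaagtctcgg
Egr2 downstream start: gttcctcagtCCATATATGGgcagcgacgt

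**Figure D1:**
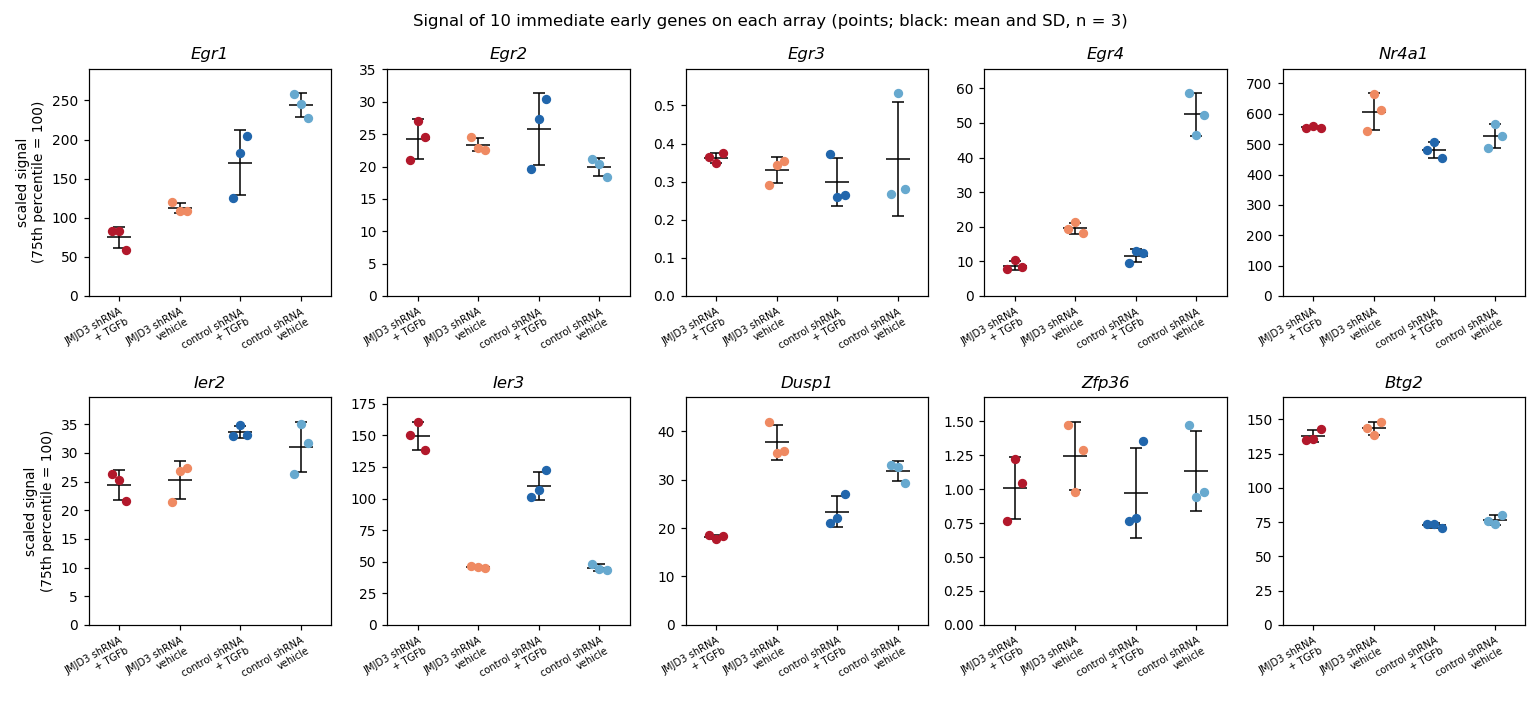
Scaled signal (linear axis, array's 75th percentile = 100) of the 10 genes on each of the 12 arrays. Points are arrays and black bars the mean and SD of the 3 arrays of a group. Egr4 stands highest in control cells with vehicle (46.4 to 58.7), Ier3 is high in both groups with TGFb, and Btg2 is high in both knockdown groups.

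The first question was what TGFb did to these genes. With TGFb, Egr4 and Dusp1 fell and Ier3 rose in both lines, while the other 7 members did not pass the test in either. Only 2.5 h was sampled, so changes that came and went earlier were not measured. In knockdown cells 3 of 10 members passed, 1 higher and 2 lower, against 9.47% of all genes (4.73% higher and 4.74% lower). In control cells the same 3 passed, again 1 higher and 2 lower, against 10.1% of all genes (5.42% higher and 4.72% lower). The members were chosen with earlier results of these data known, so these shares do not compare a neutral set with all genes. The median log2 difference of the 10 members was -0.09 in knockdown cells and -0.17 in control cells, beside medians over all genes of -0.02 and -0.01.

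Egr4, whose product binds the same DNA element as Egr1, had a scaled signal of 7.69, 10.3 and 8.35 in knockdown cells with TGFb, against 19.3, 21.2 and 18.1 in knockdown cells with vehicle. In control cells it had 9.43, 13.1 and 12.4 with TGFb, against 58.7, 46.4 and 52.4 with vehicle. Every TGFb array lay below every vehicle array of its line, and the vehicle arrays of the control line stood far above the other 9. The log2 difference was -1.16 ± 0.14 in knockdown cells (2.24-fold less, limma adjusted p = 0.000235) and -2.18 ± 0.14 in control cells (4.53-fold less, adjusted p = 1.19e-06). The Egr4 probe lies at chr6:85461153-85461212 (mm9, minus strand).

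Ier3, a stress-inducible gene whose product modulates ERK signalling and survival, was the one member that rose with TGFb. It had 150, 160 and 138 in knockdown cells with TGFb, against 46.8, 46.0 and 44.7 in knockdown cells with vehicle. Control cells gave 101, 106.6 and 123 with TGFb, against 48.3, 44.5 and 43.3 with vehicle. The 6 arrays with TGFb did not overlap the 6 with vehicle, and the vehicle arrays of both lines lay together. The rise was 1.70 ± 0.08 on the log2 scale in knockdown cells (3.26-fold, limma adjusted p = 5.58e-08) and 1.28 ± 0.08 in control cells (2.42-fold, adjusted p = 5.80e-07). Its probe lies at chr17:35959528-35959587 (mm9, plus strand).

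Dusp1, the phosphatase that switches off p38, JNK and ERK in the nucleus, had 18.6, 17.7 and 18.4 in knockdown cells with TGFb, against 42.0, 35.5 and 35.9 with vehicle. In control cells it had 21.1, 22.04 and 27.1 with TGFb, against 33.1, 32.7 and 29.4 with vehicle. The groups did not overlap in either line. The log2 difference was -1.05 ± 0.10 in knockdown cells (2.07-fold less, limma adjusted p = 2.59e-05) and -0.45 ± 0.10 in control cells (1.36-fold less, adjusted p = 0.0125). The call in control cells did not hold under normexp (a model-based background correction, adjusted p = 0.146), with the authors' processed values (0.157), in a fit of the compared groups alone (0.0539) and without control vehicle replicate 1 or control TGFb replicate 1 or 2 (0.0512, 0.0513 and 0.0559).

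Egr1, the best known inducible factor of the family, had 83.2, 82.7 and 58.9 in knockdown cells with TGFb, against 120, 108 and 109 with vehicle. In control cells it had 125, 183 and 205 with TGFb, against 259, 246 and 228 with vehicle. The groups did not overlap in either line, but the arrays with TGFb were spread widely. The log2 difference of -0.60 ± 0.17 in knockdown cells (limma adjusted p = 0.0527) and of -0.55 ± 0.17 in control cells (adjusted p = 0.0756) did not pass the test. In knockdown cells it passed with normexp, with quantile normalization, in a fit of the compared groups alone (limma adjusted p = 0.0487, 0.0475 and 0.0478) and without control TGFb replicate 1 or 3 (0.0109 and 0.0353). In control cells it passed without control TGFb replicate 3 (-0.69, limma adjusted p = 0.0331) or knockdown TGFb replicate 3 (0.0458), whereas without control TGFb replicate 1 it was -0.33 (adjusted p = 0.186). Where the array left out was of the other line, the difference stayed the same and only the SE of the shared fit changed.

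The remaining 6 members did not pass with TGFb in either line on all 12 arrays. Egr2, which directs myelination and hindbrain patterning, had 21.0, 27.1 and 24.6 in knockdown cells with TGFb, against 24.5, 22.9 and 22.6 with vehicle. In control cells it had 19.6, 27.4 and 30.4 with TGFb, against 21.1, 20.4 and 18.4 with vehicle. Its groups overlapped in both lines, with log2 differences of 0.05 ± 0.15 in knockdown cells and 0.35 ± 0.15 in control cells (limma adjusted p = 0.899 and 0.212). In control cells the difference was 0.53 ± 0.11 and passed without control TGFb replicate 1 (limma adjusted p = 0.0107), and it was 0.22 without control TGFb replicate 3. Those of Nr4a1 were -0.12 ± 0.07 and -0.13 ± 0.07 (adjusted p = 0.412 and 0.439), and those of Ier2 were -0.05 ± 0.12 and 0.12 ± 0.12 (adjusted p = 0.876 and 0.735). Btg2 had log2 differences of -0.06 ± 0.05 in knockdown cells and -0.08 ± 0.05 in control cells (limma adjusted p = 0.562 and 0.503), with 95% intervals of -0.16 to 0.05 and -0.18 to 0.03.

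Zfp36 and Egr3 were dim. Zfp36, the tristetraprolin gene, lay between 0.763 and 1.47 on all 12 arrays, was well above background on each, and had wide errors (log2 differences with TGFb of -0.31 ± 0.28 in knockdown cells and -0.24 ± 0.28 in control cells). Egr3 lay between 0.260 and 0.533 and was well above background on 3 of 3 arrays of knockdown cells with TGFb, 1 of 3 with vehicle, 1 of 3 of control cells with TGFb and 3 of 3 with vehicle. It passed the filter on dim probes through these groups, and its highest array (0.533) was control vehicle replicate 2. Its log2 differences with TGFb were 0.14 ± 0.29 in knockdown cells and -0.21 ± 0.29 in control cells. At these signals only large changes of Zfp36 and Egr3 could have been detected.

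**Figure D2:**
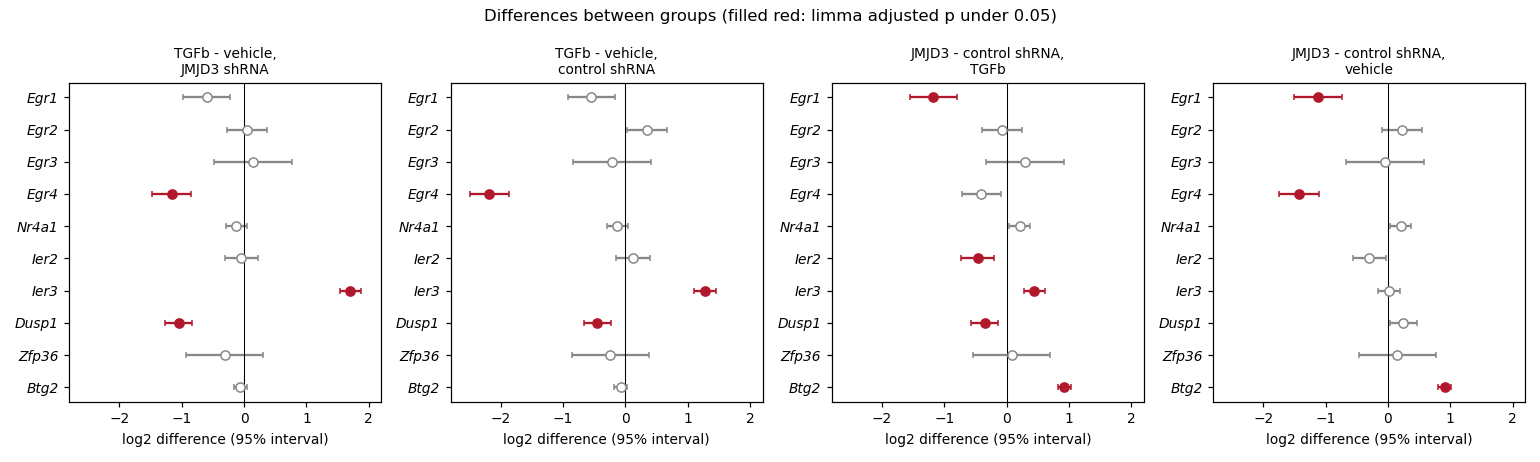
Log2 differences of the 10 genes in the 4 comparisons of 2 groups, with 95% intervals of the limma fit (n = 3 arrays a group). Filled red points passed an adjusted p under 0.05. Egr4, Dusp1 and Ier3 passed with TGFb in both lines, and Btg2 and Egr1 passed with the knockdown under both treatments.

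The next question was how the knockdown line differed from the control line under each treatment. Egr1 was lower and Btg2 higher in knockdown cells under both treatments. With TGFb, 5 of 10 members passed, Btg2 and Ier3 higher and Egr1, Ier2 and Dusp1 lower, against 28.9% of all genes (12% higher and 16.9% lower). With vehicle, 3 of 10 passed, Btg2 higher and Egr1 and Egr4 lower, against 27.8% of all genes (15.3% lower and the rest higher), so that the share of members with vehicle was close to that of all genes. Here too the members were not chosen blind to these data. The medians of the members' log2 differences were 0.00 with TGFb and 0.08 with vehicle, beside -0.01 and -0.02 over all genes. The knockdown comparisons use the same arrays as the TGFb comparisons, so a gene that was high on the arrays of control cells with vehicle is low in both.

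Btg2, which is expressed in neural progenitors that go on to generate neurons, had 135, 136 and 143 in knockdown cells with TGFb, against 73.7, 73.4 and 70.3 in control cells with TGFb. With vehicle it had 143, 139 and 148 in knockdown cells, against 76.0, 73.2 and 80.2 in control cells. All 6 knockdown arrays lay above all 6 control arrays, and replicates were tight. The log2 difference was 0.93 ± 0.05 with TGFb (1.90-fold, limma adjusted p = 2.57e-07) and 0.91 ± 0.05 with vehicle (1.88-fold, adjusted p = 2.60e-07). Within single slides it was 0.88 and 0.98 with TGFb and 0.89 to 0.92 with vehicle. Its probe lies at chr1:135972094-135972153 (mm9, minus strand).

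Among 5 neuron markers, the migrating neuron gene Dcx (0.91 with TGFb and 1.13 with vehicle) and the synaptic vesicle gene Syt1 (1.26 and 1.06) were higher in knockdown cells, and the mature neuron gene Rbfox3 was lower (-1.28 and -1.28). The summed scaled signal of the 5 was 1071 to 1194 in knockdown cells with TGFb, against 964 to 1014 in control cells with TGFb, and 1160 to 1244 in knockdown cells with vehicle, against 1050 to 1129 in control cells with vehicle. Among oligodendrocyte markers, the progenitor gene Pdgfra was lower in knockdown cells (-1.79 and -1.97). The summed signal of these 5 was 894 to 982 with TGFb in knockdown cells, against 1232 to 1327 with vehicle, and 837 to 902 with TGFb in control cells, against 1456 to 1609 with vehicle. Each sum adds signals of different genes and weighs the brightest probes most, so it does not measure a share of cells. The part of these markers in the differences of the 10 genes was not tested.

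For Egr1, the arrays given above put knockdown cells below control cells under either treatment, without overlap. The log2 difference was -1.17 ± 0.17 with TGFb (2.26-fold less, limma adjusted p = 0.000380) and -1.12 ± 0.17 with vehicle (2.18-fold less, adjusted p = 0.000537). The order of its levels was knockdown with TGFb, knockdown with vehicle, control with TGFb and control with vehicle, from low to high. The highest knockdown vehicle array (120) and the lowest control TGFb array (125) lay close together, and that neighbouring pair was not tested.

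Egr4 averaged 8.77 ± 1.34 in knockdown cells with TGFb, 19.5 ± 1.61 in knockdown cells with vehicle, 11.7 ± 1.96 in control cells with TGFb and 52.5 ± 6.14 in control cells with vehicle (scaled signal, SD, n = 3 each). Both TGFb groups were thus the lowest, and the pair of knockdown cells with vehicle and control cells with TGFb, whose arrays did not overlap, was not tested. The knockdown difference was -1.42 ± 0.14 with vehicle (2.68-fold less, limma adjusted p = 2.80e-05), without overlap. With TGFb it was -0.41 ± 0.14 (adjusted p = 0.0551), where the arrays overlapped. The difference with TGFb passed with slide as a block, at -0.51 ± 0.14 (limma adjusted p = 0.0180), with quantile normalization (0.0404), and without control TGFb replicate 1 or knockdown TGFb replicate 2 (0.0120 and 0.0252).

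Ier3 and Dusp1 passed the test between the lines with TGFb and did not pass it with vehicle. Ier3 was 0.44 ± 0.08 higher in knockdown cells with TGFb (1.36-fold, limma adjusted p = 0.00125) and its difference with vehicle was 0.02 ± 0.08 (95% interval -0.15 to 0.19). Dusp1 was lower in knockdown cells with TGFb (-0.35 ± 0.10, adjusted p = 0.0198), while its difference with vehicle was 0.25 ± 0.10 (adjusted p = 0.0879, and 0.0336 without control TGFb replicate 3). That array is outside the comparison with vehicle, so leaving it out changed only the SE. The 3 knockdown arrays of Dusp1 lay below the control arrays with TGFb and above them with vehicle. Its call with TGFb was lost with normexp (adjusted p = 0.238), with the authors' processed values (0.188), in a fit of the compared groups alone (0.0516) and without control TGFb replicate 3 or knockdown TGFb replicate 2 or 3 (0.0601, 0.0639 and 0.0508).

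Ier2, a nuclear protein gene induced by serum, had 26.4, 25.3 and 21.5 in knockdown cells with TGFb, against 32.9, 34.8 and 33.1 in control cells with TGFb. With vehicle it had 21.5, 26.9 and 27.4 in knockdown cells, against 26.4, 35.0 and 31.8 in control cells. The groups did not overlap with TGFb and did with vehicle. The log2 difference was -0.47 ± 0.12 with TGFb (limma adjusted p = 0.0133) and -0.30 ± 0.12 with vehicle (adjusted p = 0.0966). Without knockdown TGFb replicate 3 the limma adjusted p with TGFb was 0.0610, and without control vehicle replicate 1 the difference with vehicle passed (-0.41, adjusted p = 0.0287).

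Nr4a1 had 553, 560 and 554 in knockdown cells with TGFb, against 482, 507 and 456 in control cells with TGFb. With vehicle it had 543, 665 and 614 in knockdown cells, against 489, 566 and 525 in control cells. The groups were separate with TGFb and overlapped with vehicle, and the log2 differences of 0.21 ± 0.07 and 0.20 ± 0.07 did not pass the test (limma adjusted p = 0.0580 and 0.0657). With vehicle it passed without control vehicle replicate 2 or knockdown vehicle replicate 1 (limma adjusted p = 0.0402 and 0.0135), and with TGFb without control vehicle replicate 1 or knockdown vehicle replicate 1 or 2 (0.0498, 0.0272 and 0.0380), in a fit of the compared groups alone (0.0304) and with quantile normalization (0.0398). Vehicle arrays are outside the comparison with TGFb, so leaving 1 out kept that difference at 0.21 and changed only its SE. Egr2, Egr3 and Zfp36 gave differences of -0.07 ± 0.15, 0.30 ± 0.29 and 0.08 ± 0.28 with TGFb and of 0.23 ± 0.15, -0.05 ± 0.29 and 0.15 ± 0.28 with vehicle, none of which passed. With vehicle the Egr2 arrays of the lines did not overlap.

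The arrays lay on 4 slides, and arrays of different groups on the same slide deviated together, so slide was also fitted as a block. With it, 6 of 10 members passed for the knockdown with vehicle, since Nr4a1 (0.20 ± 0.05, limma adjusted p = 0.00596), Ier2 (-0.30 ± 0.07, adjusted p = 0.00839) and Dusp1 (0.25 ± 0.08, adjusted p = 0.0347) joined Btg2, Egr1 and Egr4. With TGFb, Nr4a1 (0.24 ± 0.05, adjusted p = 0.00415) and Egr4 joined the 5 members already named. The block raised calls over all genes as well, from 6711 to 9053 of 24149 with vehicle and from 6977 to 8884 with TGFb. With TGFb against vehicle the same 3 members passed in each line under the block, beside 1897 of 24149 genes in knockdown cells and 2897 in control cells. Within slide 3, the slide that held all 4 groups, the TGFb difference was -1.23 for Egr4, 1.75 for Ier3, -0.95 for Dusp1 and -0.39 for Egr1 in knockdown cells, against -2.00, 1.30, -0.41 and -0.32 in control cells.

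The last comparison asked whether the TGFb response differed between the lines, as the response in knockdown cells minus that in control cells. No member passed (0 of 10, limma adjusted p under 0.05, against 0.0828% of all genes, 0.0456% higher and 0.0373% lower). An unadjusted limma p under 0.05 was seen for 3 members, but the share of all genes at that level was not counted. For Egr4 the difference of responses was 1.02 ± 0.20 on the log2 scale, with the smaller fall in knockdown cells (95% interval 0.57 to 1.46, limma adjusted p = 0.154). Dusp1 had a difference of -0.60 ± 0.14 (interval -0.91 to -0.29, adjusted p = 0.276) and Ier3 one of 0.43 ± 0.11 (interval 0.19 to 0.67, adjusted p = 0.366). With slide as a block these were 0.92 ± 0.19, -0.65 ± 0.12 and 0.38 ± 0.10 (adjusted p = 0.153, 0.0946 and 0.317). For Egr1 the difference was -0.05 ± 0.24, with an interval of -0.59 to 0.48 that still allows sizeable changes either way. Btg2 and Nr4a1 had narrower intervals, of -0.13 to 0.17 and -0.23 to 0.24.

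**Figure D3:**
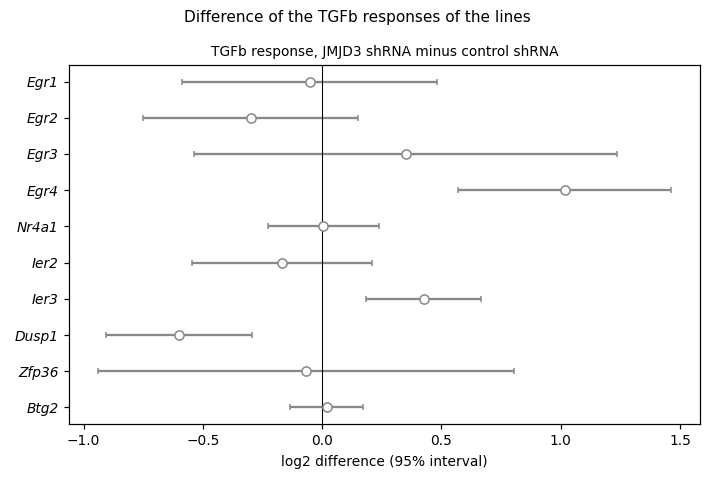
Difference of the TGFb responses (knockdown line minus control line, log2) of the 10 genes with 95% intervals of the limma fit on 12 arrays. All points are open because none passed an adjusted p under 0.05. Egr4 (1.02), Ier3 (0.43) and Dusp1 (-0.60) have intervals that leave out 0 before adjustment. The share of all genes with such intervals was not counted.

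Related immediate early and signalling genes were read from lists of 60 genes, of which 59 were measured. With TGFb, 17 rose and 19 fell in knockdown cells (61.0% passed) and 15 rose and 19 fell in control cells (57.6%), beside 9.47% and 10.1% of all genes. The lists hold genes known to respond to such stimuli, and they were drawn up with earlier results known. Their median log2 difference was -0.08 in knockdown cells and -0.06 in control cells, since rises and falls were near balance.

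Among 8 genes of AP-1, the dimeric factor of Jun and Fos proteins, 3 rose and 1 fell with TGFb in knockdown cells and 2 rose in control cells. Junb, a known TGFb target, rose by 1.21 ± 0.15 in knockdown cells and by 0.70 ± 0.15 in control cells on the log2 scale (limma adjusted p = 0.000299 and 0.0128), and Jund by 0.50 ± 0.05 and 0.59 ± 0.05. Fos rose (0.58 ± 0.10) and Atf3 fell (-0.81 ± 0.14) in knockdown cells, and their values in control cells were 0.09 and -0.29. Between the lines, Fos was 1.03 ± 0.10 higher in knockdown cells with TGFb and 0.54 ± 0.10 higher with vehicle, while Jun was lower (-0.97 ± 0.09 and -0.77 ± 0.09). Fos and Jun thus differed between the lines in opposite directions, and Egr1 went the way of Jun. Of all 8 genes, 2 were higher and 2 lower in knockdown cells with TGFb, and 2 higher and 4 lower with vehicle. Atf3 was higher too (0.85 ± 0.14 with TGFb and 1.37 ± 0.14 with vehicle). Jund was lower under both treatments (-0.22 and -0.13), and Junb (-0.56) and Fosl2 (-0.38) were lower with vehicle.

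Of 9 other MAP kinase phosphatases, 1 rose and 4 fell with TGFb in knockdown cells, and 0 rose and 5 fell in control cells. The ERK phosphatase gene Dusp4 fell (-0.53 ± 0.07 in knockdown cells and -0.81 ± 0.07 in control cells), as did Dusp10, which acts on JNK and p38 (-0.65 ± 0.09 and -0.57 ± 0.09), Dusp2 and Dusp16. Dusp7 rose in knockdown cells (0.57 ± 0.08). The feedback phosphatase gene Dusp6 fell in control cells (-0.32 ± 0.06, limma adjusted p = 0.00483).

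Of 6 other mRNA decay and antiproliferative factors, 2 rose in knockdown cells and 3 rose and 1 fell in control cells with TGFb. Btg1, a relative of Btg2, rose by 0.59 ± 0.06 in knockdown cells and 0.72 ± 0.06 in control cells, and Zfp36l1, a relative of Zfp36, fell in control cells (-0.64 ± 0.07). Between the lines Btg1 was 0.25 ± 0.06 higher in knockdown cells with vehicle, and Zfp36l1 was higher by 0.97 ± 0.07 with TGFb and 0.55 ± 0.07 with vehicle. Tob1, another antiproliferative gene of the Btg family, was lower in knockdown cells (-0.96 ± 0.11 with TGFb and -0.75 ± 0.11 with vehicle). Nr4a2 fell with TGFb (-0.51 ± 0.06 in knockdown cells and -0.26 ± 0.06 in control cells), whereas Nr4a1 did not pass.

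The Egr corepressor genes Nab1 and Nab2 did not pass with TGFb in either line, and of the 2 Ier relatives only Ier5l passed, in knockdown cells (0.33 ± 0.07). Of 6 genes for serum response factor and its partners, 1 rose and 2 fell in knockdown cells and 1 rose and 1 fell in control cells. The ternary complex factor gene Elk3 rose in both (0.29 ± 0.04 and 0.28 ± 0.04), and the coactivator gene Mrtfb fell in both (-0.33 ± 0.08 and -0.48 ± 0.08). Srf fell in knockdown cells (-0.34 ± 0.08, limma adjusted p = 0.0210), with -0.20 in control cells.

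Of 25 further immediate early genes, 9 rose and 11 fell with TGFb in each line. The GTPase gene Rhob rose by 2.56 ± 0.08 in knockdown cells and 2.14 ± 0.08 in control cells, the kinase gene Sgk1 by 2.32 ± 0.08 and 1.99 ± 0.08, and the matricellular gene Ccn1 by 2.14 ± 0.13 and 1.81 ± 0.13. Arc, the synaptic activity gene, fell by 1.63 ± 0.16 in knockdown cells and by 1.75 ± 0.16 in control cells. Myc fell as well (-1.40 ± 0.09 and -1.83 ± 0.09), the largest fall among the 25 in control cells. Ccn2 was the one gene on these lists with a difference of TGFb responses that passed (-0.69 ± 0.10, limma adjusted p = 0.0301), rising by 0.93 ± 0.07 in knockdown cells and 1.63 ± 0.07 in control cells. The stress-induced heat shock genes Hspb1 (0.98 and 1.21) and Bag3 (0.94 and 1.03) rose and Hspa1a fell (-0.59 and -0.51) with TGFb in knockdown and control cells; the part of handling or stress in the values of the 10 genes was not tested.

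For the lines, 10 of the 59 genes were higher and 13 lower in knockdown cells with TGFb (39.0% passed), and 13 were higher and 19 lower with vehicle (54.2%), beside 28.9% and 27.8% of all genes. The activity-dependent factor gene Npas4 was higher in knockdown cells (0.93 ± 0.12 with TGFb and 1.10 ± 0.12 with vehicle), and Phlda1 was lower (-0.9997 ± 0.05 and -1.01 ± 0.05). Egr1 and Npas4, both induced by neuronal activity, thus differed between the lines in opposite directions.

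**Figure D4:**
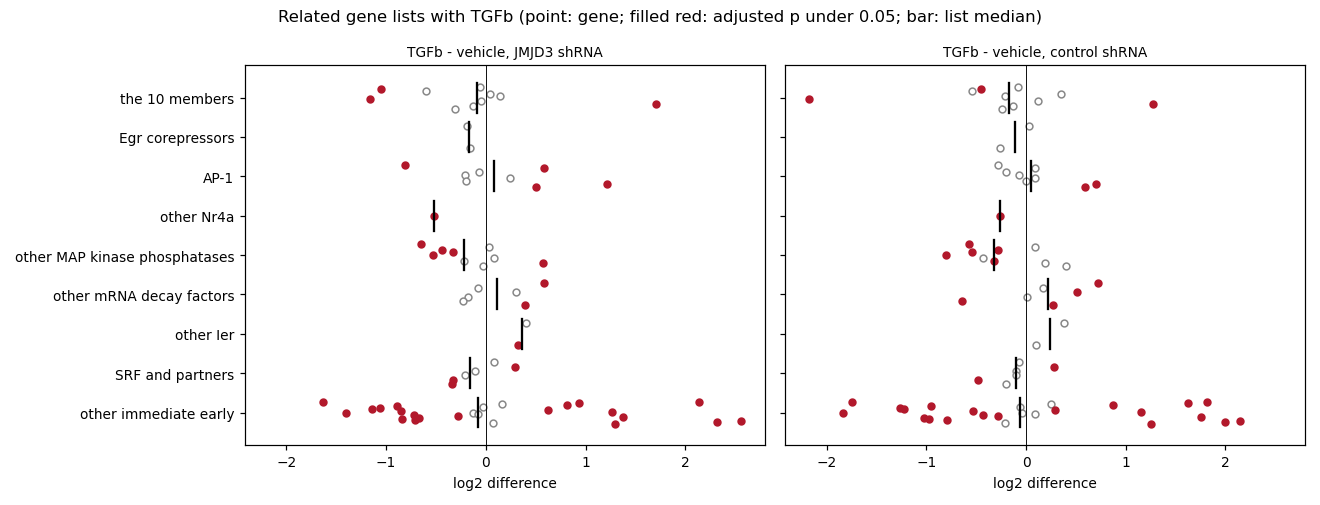
Log2 differences with TGFb of the 10 genes and of the related lists, in the knockdown line (left) and the control line (right). Each point is a gene, filled red where its adjusted p was under 0.05, and bars are list medians. Of the 25 further immediate early genes at the bottom, 9 rose and 11 fell in each line.

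The genes whose log2 signal followed Egr1 and Egr4 most closely over the 12 arrays were listed by Pearson's r. Clone, accession and similar names were passed over, so closer entries may be left out. The list is a description that the differences between the 4 groups largely set. For Egr1 the genes were Spdya (0.976), Fam160a2, Zfp871 and Siah2 (0.971 each) and Mir17hg (0.969). For Egr4 they were Cmtr2 (0.992), Ptprj (0.989), N4bp1 (0.983), Pou3f1 (0.982) and Ebf3 (0.981). Within groups, the deviations of arrays from their group means went together for Egr1 and Ier3 (r = 0.842), Nr4a1 and Ier2 (r = 0.777) and Egr2 and Egr4 (r = 0.765), and against each other for Nr4a1 and Zfp36 (r = -0.708). These r values are over 12 arrays that share slides and carry no test.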

How the data were processed

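Total RNA of 12 samples (500 ng each, per the labels' protocols) was amplified with an oligo-dT primer, labelled with Cy3 and hybridised to 1-colour arrays. The deposited files hold the intensity of 43020 gene spots and 1377 control spots, read with Feature Extraction 10.7.3.1 and with mm9 probe positions, per the file headers. The authors also deposited a table of log2 values, whose 12 columns share a median of 7.93 and each match their own array. How those were background-corrected is not given in the sources used here.

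Control and outlier spots were left out and the spots of a probe were averaged. From the log2 processed intensity the log2 of the 75th percentile over the array's gene spots was subtracted. A probe stayed (29972 did) if a group existed in which the scanner software called it well above background on each of 3 arrays, and the brightest kept probe stood for its gene (24149 genes, of which 4854 had several). RefSeq accessions named 26049 of 39429 probes and the rest kept the file's name. Groups, taken from the labels, were compared in 1 fit on 12 arrays with limma 3.58.1 in R 4.3.3 (trend, 8 residual degrees of freedom, two-sided, Benjamini-Hochberg, threshold 0.05). The fit was also tested on simulated data, whose noise was independent between arrays and held no slide effect. Precision is limited by the number of arrays, with a median SE of 0.10 for log2 differences of groups and of 0.145 for differences of responses. Alternatives were other background corrections (normexp, offset 50), normalizations, slide and replicate blocks, the compared groups alone, leaving out each array, and the authors' values. All 10 members are named, with some of the related genes that passed, not always those that lead their list. The members and lists were chosen with earlier results of these data known.

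The 4 slides were scanned on 1 day. Slides 1 and 2 held vehicle arrays with at most 1 TGFb array and slide 4 held TGFb arrays, so slide and TGFb overlap in part. Deviations from group means correlated positively in all 12 pairs of arrays of different groups that shared a slide (median r = 0.35).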

Additional observations from a re-analysis of the deposited data

Results flagged for a closer look

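Dusp1 fell with TGFb in both lines, but the difference between the lines changed sign with the treatment without overlap of the arrays. All 3 knockdown arrays lay above the control arrays with vehicle and below them with TGFb. Arrays of the lines did not overlap for 41.1% of all genes with vehicle and 38.7% with TGFb. How many of those genes changed sign was not counted. The difference of the TGFb responses was -0.60 ± 0.14 on the log2 scale (limma adjusted p = 0.276), so the crossing did not pass the test over all genes, and it was -0.54 within the 1 slide that held all 4 groups.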

How the results depend on the processing

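Of the 16 calls on the 10 genes and Kdm6b that passed, 13 passed under all 21 alternatives. Those of Dusp1 in control cells with TGFb and between lines with TGFb were lost under 6 each, and that of Ier2 between lines with TGFb under 1. With the array median in place of the 75th percentile, 1386 genes passed with TGFb in knockdown cells, 1514 in control cells and 3954 for the knockdown with vehicle, and 5 differed in response (1 higher and 4 lower, against 11 and 9 of 20). With the authors' values 6 were higher and 9 lower. The slide block gave 43 such genes, and 6 members for the knockdown with vehicle, where 9053 of 24149 genes passed. Same-numbered replicates did not pair (6 of 18 correlations above 0): with the replicate number as a block 11 genes differed in response, and Nr4a1 passed between the lines (0.21 with TGFb and 0.20 with vehicle). Leaving out 1 array gave 4 to 27 genes with a differing response, and 3 to 6 members between lines with TGFb (3 without knockdown TGFb replicate 3). Over all genes, 5394 to 7134 passed between lines with TGFb when 1 array was left out.

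Differences of Egr1, Egr2, Egr4, Nr4a1, Ier2 and Dusp1 that missed the threshold on 12 arrays, with values given beside each gene, passed under at least 1 alternative. Signs turned in differences that had not passed. With normexp Egr3 was 0.055 and Zfp36 0.0151 for TGFb in control cells, Zfp36 was -0.0374 between lines with TGFb, and Ier3 was -0.0203 with vehicle. Ier3 there was -0.00252 with quantile normalization and -0.0338 with the authors' values. Zfp36 between lines with TGFb was -0.19 with the slide block and -0.0209 with the authors' values, and Egr2 with TGFb in knockdown cells was -0.18 with the slide block. For the difference of responses, Btg2 was -0.0297 with normexp, -0.00389 with quantile normalization, -0.0313 with the array median and -0.0589 with the authors' values, and Nr4a1 was -0.0452 with the array median. Leaving out 1 array, the values ran from -0.39 to 0.11 for Egr3 with TGFb in control cells. In knockdown cells they ran from -0.0383 to 0.146 for Egr2 and from -0.158 to 0.0421 for Ier2. Between lines with vehicle they ran from -0.23 to 0.27 for Egr3 and from -0.0164 to 0.0621 for Ier3. Between lines with TGFb they ran from -0.261 to 0.0567 for Egr2 and from -0.0678 to 0.349 for Zfp36. For the difference of responses they ran from -0.26 to 0.11 for Egr1, from -0.0732 to 0.0729 for Nr4a1, from -0.27 to 0.20 for Zfp36 and from -0.0159 to 0.0493 for Btg2. Causes were not tested. Signal over background limits Egr3 and Zfp36.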
